A study of Mus musculus with 6 samples.

Results

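Amino acid transporters of the plasma membrane carry amino acids between the surroundings and the cytosol. The 10 genes described here were chosen by symbol, as carriers of neutral, cationic and small amino acids, and all 10 stand among the 49997 genes of the count table. They encode the heavy chain Slc3a2 and its light chains Slc7a5 and Slc7a6, the uniporters Slc7a1 and Slc43a1, the sodium-coupled exchangers Slc1a5 and Slc1a4, the sodium-coupled symporters Slc38a1 and Slc38a2, and the glycine transporter Slc6a9. Bulk RNA-seq was run on long-term haematopoietic stem cells (HSCs) sorted from bone marrow of 4-month-old mice, whose strain is given as C57BL/6J, and separated there by their Asrij, the protein encoded by Ociad1, as Asrij low or Asrij high. No treatment is given for either group, and the labels state neither what was read in the sort to tell Asrij levels apart nor whether each of the 3 libraries per group is from its own mice. Whether the mice carried an altered Ociad1 allele is not stated in the labels. The p-values therefore reflect only how these libraries vary, which may be technical. The comparison asks how the 2 populations differ in the expression of these carriers.

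Amino acid uptake feeds protein synthesis and, through sensors that act on mTORC1 at the lysosome, cell growth. SLC3A2 (4F2hc, CD98) is a glycoprotein that brings light chains of the SLC7 family to the cell surface. With SLC7A5 it forms LAT1, which takes up leucine and other large neutral amino acids in exchange for others, often glutamine, and the glutamine is supplied by sodium-coupled carriers. In HSCs, protein synthesis is kept low, and in developing red cells glycine and large neutral amino acids are taken up for haem and globin.

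The count totals ran from 24707012 to 46240743 in Asrij low and from 62732782 to 72855125 in Asrij high, so low genes were measured less precisely in Asrij low. Ociad1 rose in Asrij high (log2 fold change 0.64 ± 0.16 SE, adjusted p = 0.0115 in edgeR's quasi-likelihood test), but missed the threshold with Asrij high replicate 1 left out (0.53, adjusted p = 0.0831), with library totals as the only scaling (0.36, adjusted p = 0.133) and with upper quartile factors (0.36, adjusted p = 0.0834). All 10 listed HSC markers were detected, with a summed level of 1125 to 1374 CPM (counts scaled to library size) in Asrij low and 466.4 to 653.1 CPM in Asrij high, and 8 of the 10 fell. Kit was the largest part of that sum (681.9 to 378.0 CPM, log2 fold change -0.85). The other falls were larger, namely Procr (-3.08, 34.3 to 4.06 CPM), Fgd5 (-2.74), Hlf (-2.62), Slamf1 (-2.38), Mecom (-2.32), Ly6a (-2.31) and Hoxb5 (-1.96). Ctnnal1 and Mllt3 did not pass the test. All 8 proliferation markers rose, from a summed 665.4 to 922.8 CPM to 3365 to 5098 CPM. Of 12 erythroid markers 5 rose (Klf1, Epor, Tfrc, Ermap and Car1) and 5 fell (Alas2 and the globin genes Hba-a1, Hba-a2, Hbb-bs and Hbb-bt). The rises ran from a log2 fold change of 2.01 (Klf1) to 4.05 (Car1, 75.4 to 1250 CPM). The summed level of the 12, mostly globin, was 27630, 11240 and 81220 CPM in Asrij low replicates 1 to 3 and 5353 to 9436 CPM in Asrij high. That sum does not show the 5 rises. Markers of other cells had counts in both groups, some of them very few. Of 10 granulocyte-monocyte markers 4 rose and 1 fell (892.6 to 3742 CPM in Asrij low, 4234 to 7205 CPM in Asrij high), of 9 stromal and endothelial markers 7 fell and 0 rose (241.2 to 823.3 and 25.95 to 80.04 CPM), of 9 tested B and plasma cell markers 7 fell and 0 rose (91.24 to 247 and 21.37 to 28.38 CPM), and of 7 macrophage markers 5 fell and 0 rose (69.3 to 197.1 and 36.84 to 48.12 CPM). The granulocyte-monocyte rises were those of Mpo (log2 fold change 4.16, 84.3 to 1504 CPM), Elane (4.15), Prtn3 (2.24) and Ctsg (4.42). Mmp9 fell (-3.21). The other 5, among them Ltf and Ngp (760.7 and 929.3 CPM in Asrij low), did not pass the test. Their sum therefore does not show the size of the 4 rises. Of 7 megakaryocyte markers 1 fell and 0 rose (496.4 to 761.2 and 327.6 to 1042 CPM). Of 4 tested T and NK cell markers 1 fell and 0 rose (28.99 to 42.05 and 28.7 to 64.8 CPM). Nkg7 made up most of the T and NK sum in every library (mean 31.3 CPM for Asrij low, 46.0 CPM for Asrij high). From the same list, Cd3e, Cd3g and Trbc2 averaged 0.154, 0.0772 and 0.704 CPM for the former group, 0.0260, 0.115 and 0.0689 CPM for the latter. Cd3d, Klrb1c and Il7r averaged 2.58, 1.18 and 1.15 CPM in Asrij low, and 0.715, 0.215 and 0.0967 CPM in Asrij high. Cd3d reached 5.95 CPM in Asrij low replicate 3 and 1.99 CPM in Asrij high replicate 3. The T and NK sum therefore rests mainly on Nkg7, and whether T cells were present was not tested. The part of any of these marker lists in the results below was not tested. In bulk RNA, fewer cells of a type and less RNA per cell cannot be told apart.

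Of the 10 transporters, 4 rose in Asrij high (Slc7a5, Slc7a1, Slc43a1 and Slc3a2), 1 fell (Slc7a6) and 5 did not pass the test. Among all 21445 genes tested, 39.4% were called at an adjusted p under 0.05, 21.7% higher and 17.7% lower in Asrij high. The 5 of 10 called here are therefore close to the share of all genes. The groups did not overlap for 6 of the 10, against 55% of all genes (5 higher, against 30.2%, and 1 lower, against 24.8%). The median log2 fold change was 0.41 over the 10 members and -0.02 over all genes tested. Without Asrij high replicate 1 the number of members called was 2, and without Asrij high replicate 3 it was 3, while over all genes it fell from 8452 to 5481 and to 5863. Leaving out the library with the highest erythroid marker sum (Asrij low replicate 3) along with the one nearest to the other group on the first principal component (Asrij high replicate 2), 6 members were called, 5 higher and 1 lower. Both libraries are marked out by these same data, and leaving out one that lies near the other group favours wider differences. Slc7a6, for one, went from -1.09 to -1.75 on the log2 scale. The count of 6 is therefore no independent check.

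**Figure D1:**
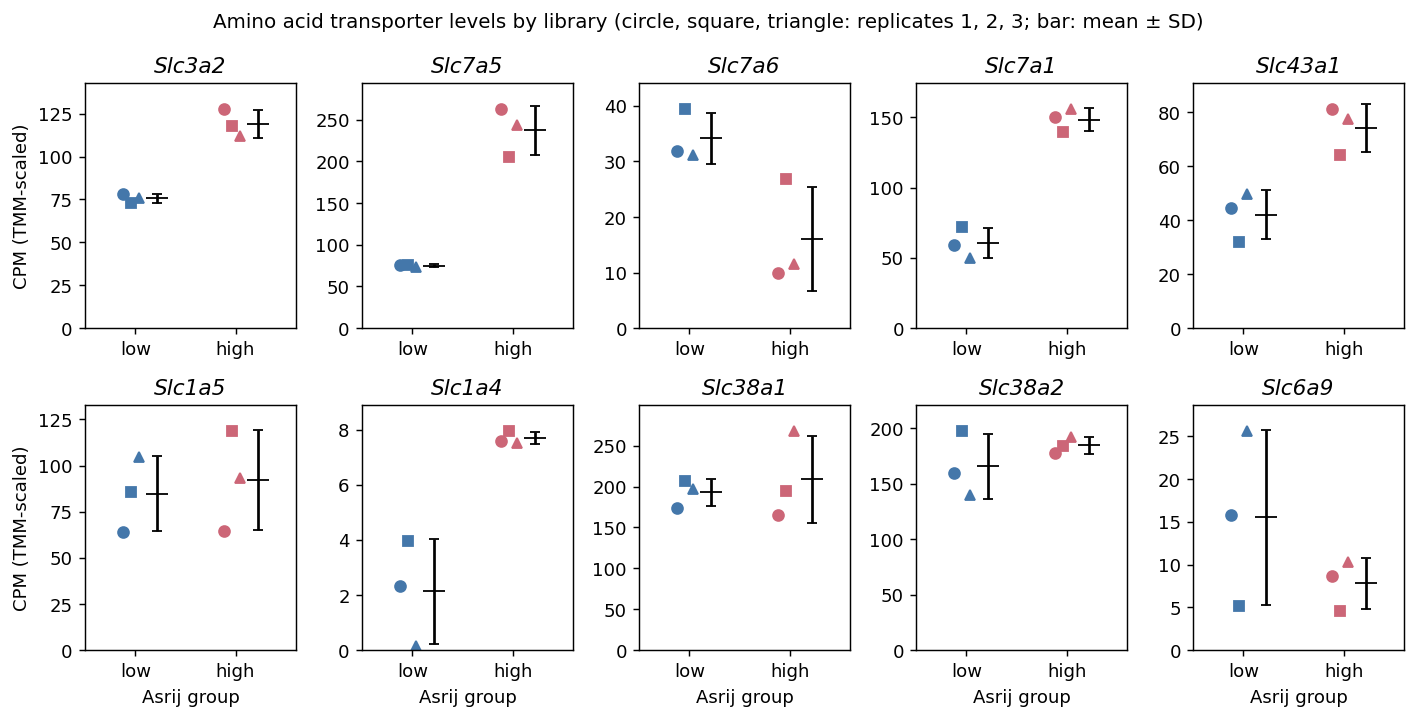
Level of each transporter in CPM (linear axis from 0) in the 3 Asrij low (blue) and 3 Asrij high (red) libraries, with circle, square and triangle for replicates 1, 2 and 3 and a bar for mean ± SD. Slc7a5, Slc7a1, Slc43a1, Slc3a2 and Slc1a4 are higher in every Asrij high library than in any Asrij low library, Slc7a6 is lower in every one, and the other 4 overlap.

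Slc7a5 and Slc3a2 encode the chains of LAT1. Slc7a5 (chromosome 8, 121881146 to 121907686, minus strand, GRCm38.p6 as for all positions given) was at 75.7, 76.2 and 73.5 CPM in Asrij low replicates 1 to 3 and at 262.8, 204.8 and 244.1 CPM in Asrij high. The Asrij low libraries lay within 1.04-fold of each other, and every Asrij high library stood far above them. The rise was 3.16-fold (log2 1.66 ± 0.16 SE, adjusted p = 2.30e-04, edgeR quasi-likelihood). It passed the threshold under all 15 alternatives, with log2 fold changes from 1.38 to 1.79.

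Slc3a2 (chromosome 19, 8706882 to 8723369, minus strand) was at 78.3, 73.0 and 75.7 CPM in Asrij low and at 127.6, 117.6 and 111.8 CPM in Asrij high. The groups did not overlap, and the spread within each was small. Its rise, 1.57-fold (log2 0.65 ± 0.14 SE, adjusted p = 0.00653, edgeR), was smaller than that of its partner. It missed the threshold when Asrij high replicate 1 was left out (0.55, adjusted p = 0.0534), with library totals as the only scaling (0.38, adjusted p = 0.0734) or with upper quartile factors (0.38, adjusted p = 0.0507). The scaling matters because these 2 settings moved the median of all genes by -0.27 and gave 40.2% and 39.9% of calls as higher, in place of 55.1%. Relative to the median of all genes, Slc3a2 stood 0.68 higher in the reported fit and 0.67 higher with either of them. A change of scaling shifts all genes by nearly the same amount. That likeness was therefore fixed in advance and is no check of the rise.

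Slc7a6 encodes y+LAT2, the light chain that exchanges cationic for neutral amino acids with sodium. The gene (chromosome 8, 106168219 to 106198714, plus strand) was at 31.9, 39.4 and 31.2 CPM in Asrij low and at 9.88, 26.9 and 11.5 CPM in Asrij high. Asrij high replicate 2 lay close to the Asrij low libraries, and the other 2 far below. It fell by 1.09 ± 0.36 (SE) on the log2 scale (adjusted p = 0.0393, edgeR). The call rested on all libraries but that one. Without Asrij low replicates 1 to 3 the values were -1.10, -0.94 and -1.18 (adjusted p = 0.0887, 0.111 and 0.0592), and without Asrij high replicates 1 and 3 the values were -0.88 and -0.95 (adjusted p = 0.0892 and 0.0937). Without Asrij high replicate 2 the value was -1.64 (adjusted p = 8.42e-04).

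Per kilobase of exon, the light chain LAT1 uses rose relative to its heavy chain. The ratio of Slc7a5 to Slc3a2 in RPKM, that is CPM per kilobase of exon, was 0.919, 0.993 and 0.925 in Asrij low and 1.96, 1.66 and 2.08 in Asrij high. The ratio of Slc7a6 to Slc3a2 was 0.315, 0.417 and 0.318 in Asrij low and 0.0598, 0.176 and 0.0791 in Asrij high. Neither ratio overlapped between the groups, with the Slc7a5 ratio higher and the Slc7a6 ratio lower in Asrij high. These ratios are of RNA and depend on the exon lengths used, though the change between groups does not.

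Slc7a1 encodes CAT-1, the main carrier of arginine and lysine in most cells. The gene (chromosome 5, 148327410 to 148399904, minus strand) was at 59.3, 71.6 and 50.2 CPM in Asrij low and at 149.9, 139.5 and 155.8 CPM in Asrij high. Its highest Asrij low library was well under its lowest Asrij high library. It rose 2.46-fold (log2 1.30 ± 0.17 SE, adjusted p = 7.49e-04, edgeR) and passed the threshold under all 15 alternatives, with log2 fold changes from 1.03 to 1.47.

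Slc43a1 encodes LAT3, a uniporter of large neutral amino acids that needs no heavy chain and is known from red cell development. The gene (chromosome 2, 84838855 to 84863586, plus strand) was at 44.5, 32.1 and 49.5 CPM in Asrij low and at 81.1, 64.2 and 77.5 CPM in Asrij high. The groups did not overlap, and replicate 2 was the lowest of each group. It rose 1.77-fold (log2 0.82 ± 0.20 SE, adjusted p = 0.0107, edgeR). Leaving out Asrij high replicate 1 ended the call (0.70, adjusted p = 0.0710) as did leaving out replicate 3 (0.73, adjusted p = 0.0590), library totals (0.55, adjusted p = 0.0565) or upper quartile factors (0.54, adjusted p = 0.0697). At its start Slc43a1 overlaps the noncoding gene D930003E18Rik by 1354 bases, and whether counting used the strand is not given in the sources used here, so reads of these 2 genes may not be told apart. D930003E18Rik had 231 to 470 counts over the libraries.

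Slc1a5 and Slc1a4 encode ASCT2 and ASCT1, sodium-dependent exchangers of small neutral amino acids, of which ASCT2 is the better known glutamine carrier. Slc1a5 (chromosome 7, 16781334 to 16798274, plus strand) was at 63.8, 85.6 and 104.5 CPM in Asrij low and at 64.5, 118.6 and 93.5 CPM in Asrij high. The groups overlapped over most of their range, and the libraries of one group differed by up to 1.84-fold. The log2 fold change was 0.12 ± 0.25 SE (adjusted p = 0.725, edgeR), a difference within the spread of the libraries.

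Slc1a4 (chromosome 11, 20302180 to 20332713, minus strand) was the least expressed transporter of the 10 in Asrij low, at 2.31, 3.95 and 0.154 CPM, which are 125, 114 and 4 counts. In Asrij high it was at 7.60, 7.95 and 7.52 CPM. The Asrij high libraries lay within 1.06-fold of each other and above all Asrij low libraries, which spread 25.6-fold. The fitted log2 fold change, 1.84 ± 0.78 SE, did not pass the threshold (adjusted p = 0.0868, edgeR). It did in 6 of the 15 alternatives, among them those without Asrij low replicate 3 (1.29, adjusted p = 0.0281), without Asrij low replicate 2 (2.61, adjusted p = 0.0445), without Asrij low replicate 3 and Asrij high replicate 2 (1.27, adjusted p = 0.0476), and in DESeq2 (1.81, adjusted p = 0.0293) and limma-voom (2.44, adjusted p = 0.0166), with a range over the alternatives of 0.0166 to 0.186.

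Slc38a1 and Slc38a2 encode SNAT1 and SNAT2, which take up glutamine and other small neutral amino acids with sodium, and they lie side by side on chromosome 15. Slc38a1 (96571418 to 96643438, minus strand) was at 174.2, 207.4 and 196.9 CPM in Asrij low and at 164.9, 194.3 and 267.8 CPM in Asrij high. Asrij high replicate 1 was the lowest library and replicate 3 the highest of all 6. Slc38a2 (96687392 to 96699728, minus strand) was at 159.5, 197.6 and 140.1 CPM in Asrij low and at 177.5, 184.5 and 192.5 CPM in Asrij high, where all 3 libraries lay inside the Asrij low range. Neither difference passed the test (log2 0.12 ± 0.20 SE, adjusted p = 0.674, and 0.16 ± 0.17 SE, adjusted p = 0.492, edgeR). Within Slc38a1 lies the noncoding gene Gm32457, which had 25 to 184 counts.

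Slc6a9 encodes GlyT1, the glycine transporter that supplies haem synthesis in developing red cells. The gene (chromosome 4, 117835258 to 117869305, plus strand) was at 15.8, 5.20 and 25.6 CPM in Asrij low and at 8.61, 4.54 and 10.3 CPM in Asrij high. The groups overlapped, and Asrij low replicate 2 stood close to the lowest Asrij high library. The log2 fold change was -0.99 ± 0.53 SE (adjusted p = 0.164, edgeR). Asrij low replicate 3 carried much of it, since the value without that library was -0.47 (adjusted p = 0.539), and without Asrij low replicate 2 the gene passed the threshold (-1.37, adjusted p = 0.0279). Within each group the order of the libraries by Slc6a9 was that of their summed erythroid markers, with replicate 3 highest and replicate 2 lowest, a likeness noticed after the values were seen whose part in the difference was not tested. Slc6a9 and its neighbour Ccdc24 (0 to 107 counts) overlap by 51 bases.

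Of the 10 transporters, RefSeq start site windows (GRCm38.p6, 250 bases before to 50 after a start) were matched for 7. Slc7a5, Slc1a5 and Slc38a1 were not matched. They were searched on both strands for 2 elements that are known to bind factors of amino acid supply and growth. One is the C/EBP-ATF response element, spelled TGATGNAA, to which ATF4 binds, and the other is the E-box CACGTG, to which MYC with MAX binds. The first was found in 1 of 11 member windows, that of Slc1a4, against 3.97% of 32851 windows of all genes. The second was found in 1 of the 11, that of Slc43a1, against 7.15% of all windows. Those windows are shown with the matched letters in capitals, beside those of Slc3a2, which rose, and Slc7a6, which fell, and which hold neither. A window is built on the start of a RefSeq transcript, and those of Slc43a1, Slc3a2 and Slc7a6 lie inside the gene ranges given above, so other transcripts of these genes start further upstream. The 7 genes had 11 windows, of which Slc7a6 had more than the one shown. Each line runs 5′ to 3′ along the gene's strand and ends at the base before the start, except that of Slc1a4, which runs 4 bases past it to the end of the match (there on the other strand, TTGCATCA).
Slc1a4, chr11:20332710-20332963, minus strand: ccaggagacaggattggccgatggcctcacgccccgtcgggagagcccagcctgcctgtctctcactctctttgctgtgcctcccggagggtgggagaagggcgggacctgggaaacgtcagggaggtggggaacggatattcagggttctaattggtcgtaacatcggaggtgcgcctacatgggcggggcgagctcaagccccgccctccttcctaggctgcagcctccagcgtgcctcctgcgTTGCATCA
Slc43a1, chr2:84840073-84840322, plus strand: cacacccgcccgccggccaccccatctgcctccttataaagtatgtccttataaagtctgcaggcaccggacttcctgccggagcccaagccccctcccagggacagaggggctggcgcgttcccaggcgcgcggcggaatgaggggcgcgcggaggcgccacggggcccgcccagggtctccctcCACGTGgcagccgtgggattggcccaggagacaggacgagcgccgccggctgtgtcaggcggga
Slc3a2, chr19:8713898-8714147, minus strand: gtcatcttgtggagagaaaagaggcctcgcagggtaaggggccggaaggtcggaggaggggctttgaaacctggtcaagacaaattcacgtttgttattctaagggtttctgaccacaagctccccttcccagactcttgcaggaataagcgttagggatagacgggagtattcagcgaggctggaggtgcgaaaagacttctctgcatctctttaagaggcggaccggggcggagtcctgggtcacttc
Slc7a6, chr8:106168604-106168853, plus strand: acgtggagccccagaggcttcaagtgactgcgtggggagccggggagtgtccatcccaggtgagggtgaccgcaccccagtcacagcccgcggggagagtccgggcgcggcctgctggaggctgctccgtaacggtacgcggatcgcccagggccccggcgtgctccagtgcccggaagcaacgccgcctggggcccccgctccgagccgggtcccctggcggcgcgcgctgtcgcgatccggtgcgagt
The E-box of Slc43a1 begins 64 bases before the start its window is built on. A match describes the letters only, and the absence of one says nothing of the factor. Atf4, the gene of the first factor, rose from 65.9 ± 2.37 to 113.8 ± 12.6 CPM (log2 0.79, adjusted p = 0.00373, edgeR, n = 3 per group). Myc was at 245.1 ± 36.2 CPM in Asrij low, with 321.1 ± 66.4 CPM in Asrij high, a difference that missed the threshold (0.39, adjusted p = 0.155).

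Compared with one another per kilobase of exon, the transporters fell in another order in each group. In Asrij low, Slc3a2 (21.4 ± 0.747 RPKM, SD, n = 3), Slc1a5 (20.3 ± 4.88), Slc7a5 (20.3 ± 0.377) and Slc38a2 (18.7 ± 3.31) came first, and each overlapped the next over the libraries. Slc38a1 followed at 11.2 ± 0.986 RPKM, apart from its neighbours, then Slc7a6 (7.48), Slc43a1 (7.36), Slc7a1 (5.24) and Slc6a9 (3.02), each overlapping the next, and Slc1a4 (0.545) came last and apart. In Asrij high, Slc7a5 stood first and apart at 64.0 ± 7.99 RPKM, Slc3a2 second and apart at 33.7 ± 2.27 RPKM, and Slc1a5 (22.1 ± 6.49) and Slc38a2 (20.9 ± 0.852) overlapped. Slc43a1 (13.0), Slc7a1 (12.9) and Slc38a1 (12.1) then overlapped in turn, Slc7a6 (3.51) stood apart, and Slc1a4 (1.96) and Slc6a9 (1.52) overlapped at the end. The 10 genes summed to 115.6 ± 5.16 RPKM in Asrij low and 185.7 ± 4.77 RPKM in Asrij high, and Slc7a5 made up 17.6% ± 0.957 and 34.4% ± 3.91 of the sum. With the longest coding transcript as the length, an alternative chosen after the data were seen, these shares were 12.1% and 25.5%, and Slc38a2 came first in Asrij low and Slc7a5 again in Asrij high. In Asrij low, Slc38a1 (26.5 RPKM) then stood above Slc7a5 (21.4 RPKM). In Asrij high, Slc38a2 (39.7 RPKM) came near Slc3a2 (42.3 RPKM). The order therefore depends on the length used, and overlaps between neighbours were read with the exon union only. The Asrij high level of Slc7a6 was 2.33 RPKM without Asrij high replicate 2, and the Asrij low level of Slc1a4 was 0.314 RPKM without Asrij low replicate 2.

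Other carriers of the same families moved beside the members, and shares within families were looked at after the values were seen. Among the light chains that join SLC3A2, Slc7a8, the gene of LAT2, was at 24.7, 38.2 and 29.6 CPM in Asrij low and at 2.31, 9.53 and 3.11 CPM in Asrij high. Every Asrij high library was below every Asrij low library. It fell by 2.63 ± 0.50 (SE) on the log2 scale (adjusted p = 0.00354, edgeR), and the value was -3.47 without Asrij high replicate 2. Slc7a7, the gene of y+LAT1, went from 10.3 ± 3.24 to 13.1 ± 0.880 CPM, a difference that missed the threshold (log2 0.34, adjusted p = 0.386). By RPKM, Slc7a5 made up 56.0%, 50.7% and 56.9% of the 6 light chain genes in Asrij low and 90.6%, 82.2% and 89.9% in Asrij high. Slc7a6 went from 19.2%, 21.3% and 19.6% in Asrij low to a mean of 4.98% ± 3.28 and Slc7a8 from 16.5% ± 2.67 to 1.42% ± 1.23 (SD, n = 3). Without Asrij high replicate 2 these Asrij high shares were 3.09% and 0.720%.

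In the SLC43 family, Slc43a2, the gene of LAT4, was at 71.7, 66.9 and 66.5 CPM in Asrij low and at 11.1, 27.1 and 13.0 CPM in Asrij high. It fell where Slc43a1 rose (log2 -1.999 ± 0.32 SE, adjusted p = 0.00162, edgeR). Slc43a1 made up 51.5% ± 5.50 of the pair by RPKM in Asrij low and 88.2% ± 6.63 in Asrij high, and the pair summed to 14.2 ± 1.65 and 14.7 ± 0.701 RPKM. With the longest coding transcript as the length the sums were 23.2 ± 3.01 and 26.4 ± 1.68 RPKM, and the shares of Slc43a1 58.3% and 90.7%. In the SLC38 family, Slc38a5, the gene of SNAT5, a carrier of glutamine and glycine, was at 3.91, 1.32 and 7.88 CPM in Asrij low and at 110.7, 73.6 and 111.0 CPM in Asrij high. Its rise (log2 4.50 ± 0.59 SE, adjusted p = 0.00112, edgeR) was the largest among the tested carriers with counts in both groups, and without Asrij low replicate 3 it was 5.16. Of the plasma membrane SLC38 genes it made up 6.31% ± 4.89 by RPKM in Asrij low and 56.7% ± 6.00 in Asrij high, while the share of Slc38a2 went from 58.6% to 27.5% and that of Slc38a1 from 35.1% to 15.8%. The Asrij low share of Slc38a5 was 3.75% without Asrij low replicate 3. With the longest coding transcript as the length its shares were 3.57% and 41.8%, and Slc38a1 took 24.3% in Asrij high.

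**Figure D2:**
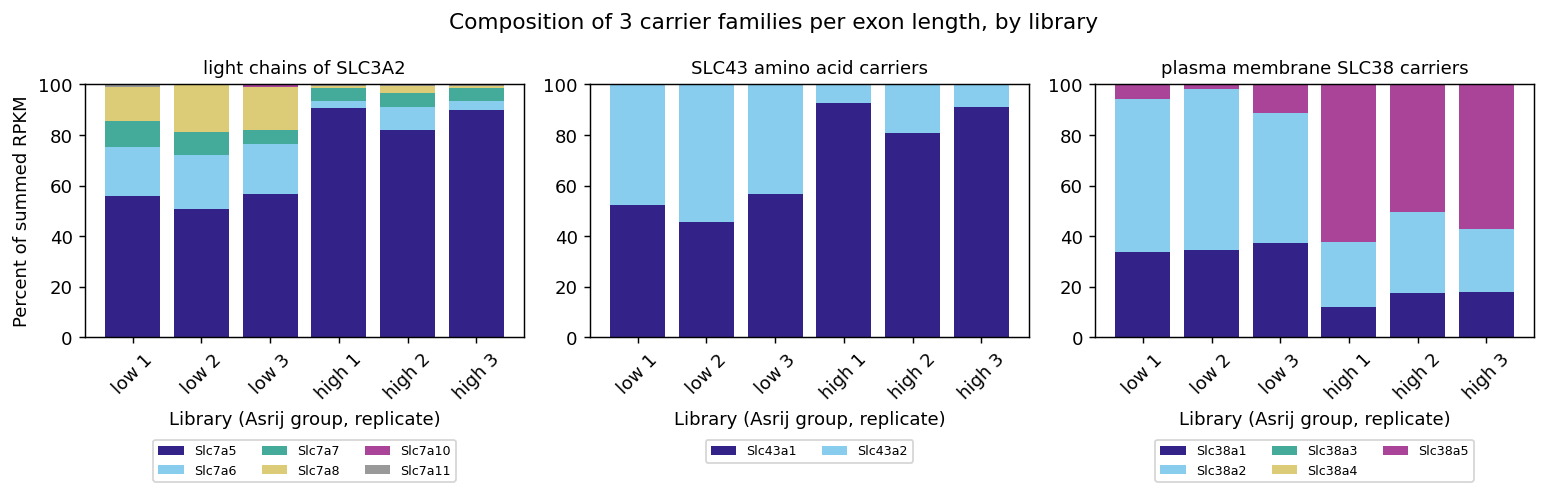
Percent of the summed RPKM of each carrier family taken by each gene, stacked from 0 to 100, in the 6 libraries. Slc7a5 goes from 50.7% to 56.9% in Asrij low to 82.2% to 90.6% in Asrij high, Slc43a1 gains over Slc43a2, and Slc38a5 becomes the largest part of its family, with Asrij high replicate 2 nearest to Asrij low in the light chain, SLC43 and SLC38 panels.

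Most of the remaining plasma membrane carriers were low or did not pass the test. Of 10 other genes in the list of light chains and cationic carriers 6 were tested, and 0 rose and 1 fell, namely Slc7a8 (0% and 16.7%, against 21.7% and 17.7% of all genes). Without Asrij low replicate 1 the list held 1 rise and 2 falls. Of 21 other plasma membrane carriers 12 were tested, and 4 rose and 2 fell (33.3% and 16.7%). Slc16a10, the gene of TAT1, a carrier of aromatic amino acids, rose from 34.1 ± 17.0 to 120.2 ± 28.5 CPM (log2 1.82, adjusted p = 0.00282, edgeR), and the neutral carrier gene Slc6a15 fell (-1.64, adjusted p = 0.00899). The other rises were those of 2 genes named after their values were seen. Slc6a20a, which encodes a proline carrier, rose (2.25, adjusted p = 0.0400), and Slc6a19 had no count in Asrij low and was at least 17.9-fold higher in Asrij high than a floor of 3 counts summed over Asrij low, which covers counting error only. Slc6a19, counted among the 4 rises, thus entered the test only through the group where it is high. Without Asrij high replicate 1 or 3 neither of them passed (adjusted p = 0.121 and 0.129 for Slc6a20a, and 0.103 and 0.0772 for Slc6a19), and the list then held 2 rises. Slc6a20a was lost also without Asrij low replicate 1 or 2 (0.122 and 0.0515), and without Asrij low replicate 3 its log2 fold change was 3.35. It was lost with library totals (0.0597), with upper quartile factors (0.0762) and with a mean of at least 1 CPM required (0.0533) as well. Slc6a6, the taurine carrier gene, was at 163.9 ± 8.18 and 162.5 ± 22.0 CPM in Asrij low and high (log2 -0.01 ± 0.16 SE).

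**Figure D3:**
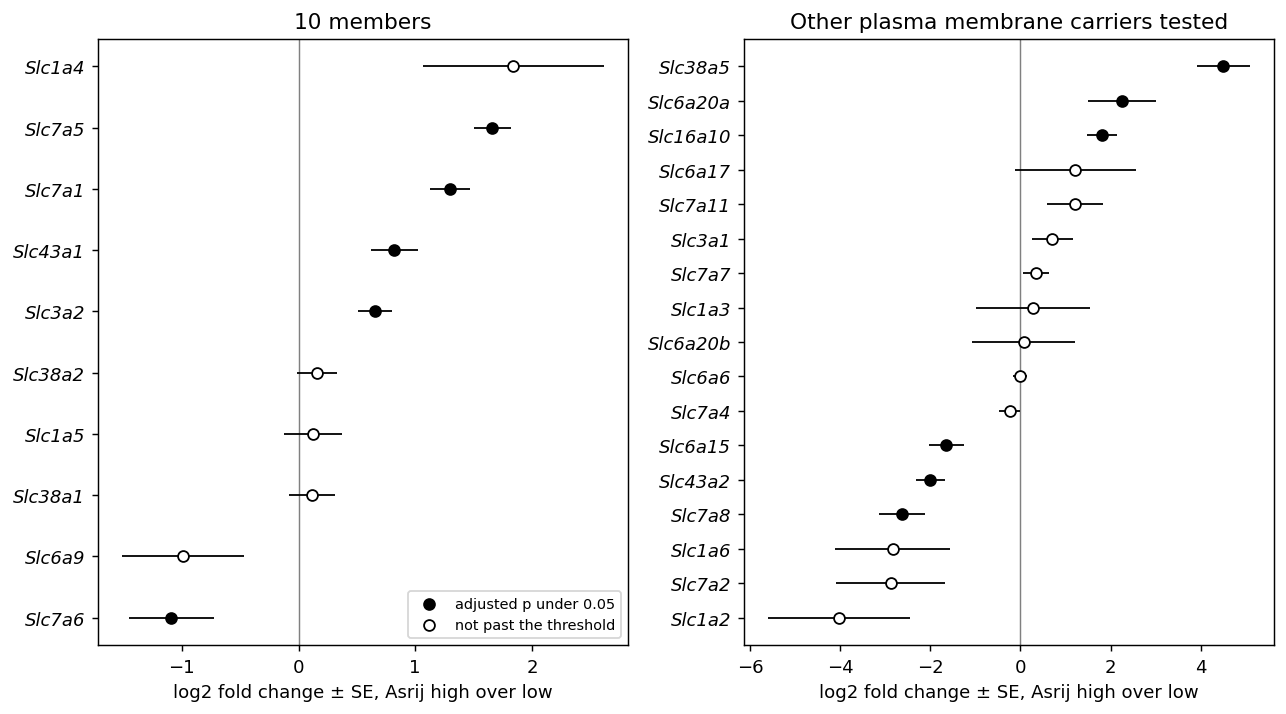
Log2 fold change of Asrij high over Asrij low with its SE for the 10 members (left) and for 17 other plasma membrane carriers tested (right), on separate axes, with filled points for an adjusted p under 0.05. Slc6a19, which had no count in Asrij low, is not drawn, and Slc38a5 (4.50) stands highest on the right.

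Inside the cell, of 10 tested carriers of the lysosome 1 rose and 1 fell (10% and 10%, against 21.7% and 17.7% of all genes), and without Asrij low replicate 2 the rises numbered 2. Slc38a9, the lysosomal arginine carrier that signals to mTORC1, rose from 31.5 ± 2.52 to 56.6 ± 7.67 CPM (log2 0.84 ± 0.18 SE, adjusted p = 0.00561, edgeR). Slc15a3, a lysosomal carrier of histidine and peptides, fell (-3.39 ± 0.55 SE, adjusted p = 0.00175). Macrophage markers, listed above, were lower in Asrij high as well, and their part in the Slc15a3 difference was not tested.

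The amino acid sensing genes around mTORC1 numbered 35, of which 9 rose and 6 fell (25.7% and 17.1%, close to the shares of all genes, median log2 fold change 0.29). Lamtor2, a part of the Ragulator anchor, rose from 43.5 ± 10.4 to 101.5 ± 14.3 CPM (log2 1.22, adjusted p = 0.00236), with Sec13, a subunit of GATOR2 that also serves in the coat of transport vesicles (1.51, adjusted p = 0.00266). Sesn3, a gene of the sestrins, to which the leucine sensor belongs, fell from 36.5 ± 3.74 to 6.84 ± 3.99 CPM (-2.41, adjusted p = 0.00179), and Castor2, of the arginine sensor family, fell (-2.12, adjusted p = 0.00174). The count of rises was 4 without Asrij high replicate 1, 4 without replicate 3, 5 without Asrij low replicate 3 and 4 with library totals or upper quartile factors, and that of falls was 3 when replicate 1 of either group was left out. Adjusted p-values in this and the next paragraph are from the same edgeR fit.

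Among 13 tested genes of the eIF2 kinases, ATF4 and MYC, 4 rose and 2 fell (30.8% and 15.4%, against 21.7% and 17.7% of all genes). Besides Atf4, these were Eif2s1, the alpha subunit of eIF2 (log2 2.13, adjusted p = 6.17e-04), and, named after their values were seen, the kinase gene Eif2ak1 (0.66) and Max (0.60). Trib3, an ATF4 target that feeds back on it, fell (-3.68, adjusted p = 0.00175), as did Mycn (-2.19, adjusted p = 0.0161). Mycn was at -3.07 without Asrij high replicate 2 and missed the threshold when Asrij high replicate 3 was left out (-1.997, adjusted p = 0.0674) and with no count filter (-2.13, adjusted p = 0.107). The rises numbered 2 when replicate 1 of either group or Asrij high replicate 3 was left out and with library totals or upper quartile factors, since Eif2ak1 was lost in the first 3 of these (adjusted p = 0.0544, 0.111 and 0.111) and Max too (0.0689, 0.0956 and 0.103). Eif2ak1 was also lost without Asrij low replicate 3 (0.0632).

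Enzymes that use or make amino acids were tested for 23 genes, of which 13 rose and 4 fell (56.5% and 17.4%, against 21.7% and 17.7% of all genes, with a median log2 fold change of 0.96 against -0.02). The list was chosen with earlier results of these data known, so its share of rises is no independent result. The rises include the serine synthesis genes Phgdh, Psat1 and Psph, the last barely past the threshold (adjusted p = 0.04997). They also include Arg1, which had no count in Asrij low and a mean of 0.362 CPM in Asrij high. Arg1 thus entered the test only through the group where it is high. Asns, which makes asparagine with nitrogen from glutamine, rose from 8.98 ± 1.08 to 138.5 ± 30.1 CPM (log2 3.95 ± 0.22 SE, adjusted p = 1.09e-04). The glutaminase gene Gls2 rose from 0.762 to 1.04 CPM in Asrij low to 8.12 to 14.1 CPM in Asrij high, the glycine-forming Shmt2 by 1.40 and the ornithine decarboxylase gene Odc1 by 2.17 on the log2 scale. The 4 falls, named after their values were seen, were those of Glul, the glutamine synthetase gene (671.0 ± 100.3 to 254.5 ± 29.2 CPM, -1.40), Bckdha (-0.77), Arg2 (-2.44) and the erythroid haem enzyme gene Alas2 (-3.08). Alas2 is also an erythroid marker, and without Asrij low replicate 3 it was at -1.999. Without Asrij high replicate 1 or replicate 3 the counts were 8 rises and 1 fall, which was that of Glul. Bckdha, Arg2 and Alas2 were lost in those 2 fits (adjusted p = 0.0649, 0.0845 and 0.134, and 0.0759, 0.0843 and 0.0611). Bckdha was lost also without Asrij low replicates 1 and 2 (0.109 and 0.0979), Arg2 without Asrij low replicate 3 (0.0649) and Alas2 without Asrij high replicate 2 (0.0971), while Arg2 was at -3.04 without Asrij high replicate 2. Alas2 was lost also in limma-voom (-2.65, adjusted p = 0.0599) and with no count filter (-3.02, adjusted p = 0.108). With a mean of at least 1 CPM required of a gene, 8 enzyme genes rose.

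**Figure D4:**
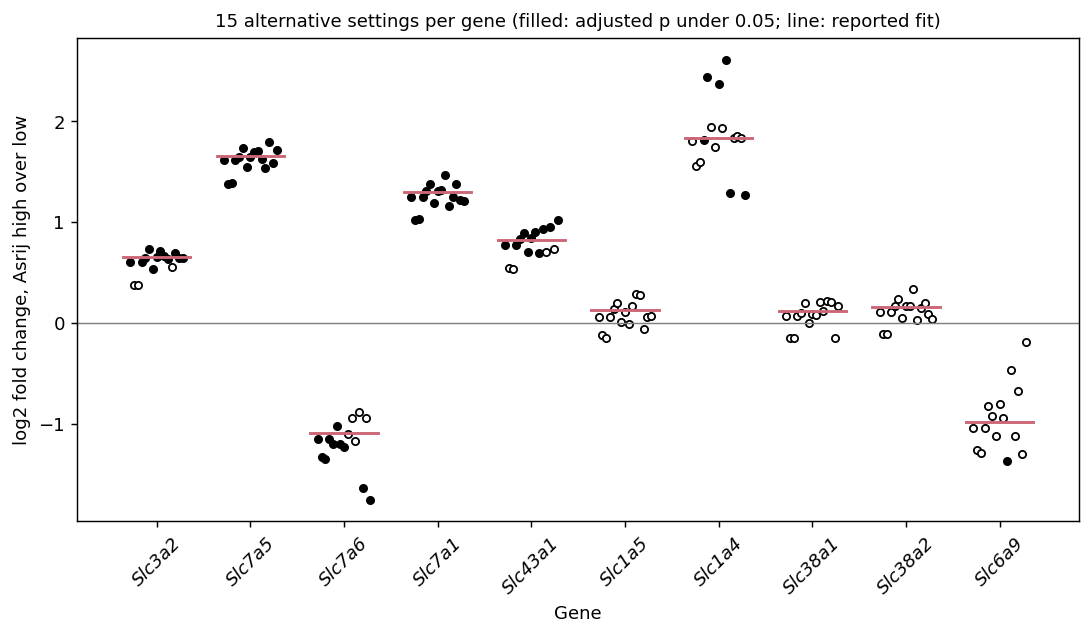
Log2 fold change of each transporter (Asrij high over Asrij low) in the reported fit (red line) and under 15 alternatives (points, filled for an adjusted p under 0.05). Every point of Slc7a5 and Slc7a1 is filled and above 1, those of Slc3a2, Slc43a1 and Slc7a6 keep their side of 0 with 3, 4 and 5 open points, and those of Slc1a5, Slc38a1 and Slc38a2 lie on either side of 0.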

How the data were processed

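Bulk RNA-seq of 6 libraries, 3 Asrij low and 3 Asrij high, was analysed. The authors deposited raw read counts, as whole numbers without normalization, for each gene symbol. FastQC, HISAT2, SAMtools and Subread with mm10 are named, per the submitters' processing notes. Not given in the sources used here are versions, annotation, strand setting and the handling of reads with several matches. Per the labels' protocols, ribosomal RNA was depleted and a stranded kit was used, whereas the molecule field names polyA RNA. Columns were tied to samples by library name.

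Counts were tested in R 4.3.3 with edgeR 4.0.16 (TMM factors, filterByExpr with minimum count 10 and total 15, robust quasi-likelihood test, group as the only term), with Benjamini-Hochberg adjustment over 21445 of 49997 genes and a threshold of 0.05. Fold changes are Asrij high over Asrij low. CPM are deposited counts over TMM-scaled totals, and RPKM divide them by the union of exons in GENCODE M21 (GRCm38), which may not be the annotation counted. SE come from the quasi-likelihood statistic. Alternatives were DESeq2 1.42.0, limma-voom (limma 3.58.1), 3 other scalings, 2 other filters, a replicate block and libraries left out. Replicates of a group always differed by more than counting noise (chi-square over its degrees of freedom, 82.5 to 183). Coordinates are RefSeq's on GRCm38.p6.

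The members and lists were chosen with earlier results of these data known. Named were all members, Ociad1, and up to 4 called genes per list with the smallest p. All other genes were named after their values were seen.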

Additional observations from a re-analysis of the deposited data

How the results depend on the processing

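Each of the 10 transporters was refitted under 15 alternatives. Of these 150 values, 122 kept their direction and side of the threshold, 12 lost the call, 7 gained it and 9 changed sign, all of the latter in genes that never passed. Slc1a5 was at -0.12 with library totals, -0.15 with upper quartile factors, -0.01 without Asrij low replicate 1 (-0.01126) and -0.06 without Asrij high replicate 2 (-0.06161), and ran from -0.06 to 0.28 (0.284) with 1 library left out. Slc38a1 was at -0.15 with either scaling (-0.147 and -0.152) and ran from -0.15 (-0.152, without Asrij high replicate 3) to 0.22 (0.222) with 1 library left out, and Slc38a2 at -0.11 with either (-0.111 and -0.108). The number of members called was 3 with library totals and 3 with upper quartile factors, and ran from 2 to 6 with 1 library left out. The number of all genes called ran from 5481 to 8935 with 1 library left out. The data did not settle whether libraries that share a replicate number are paired. The correlations of their deviations were 0.0126, 0.046 and 0.225. The last was the highest of all pairs, but not every library correlated best with its own number. With 3 libraries per group these correlations depend on one another and cannot exclude pairing. With a replicate block 8088 genes and 6 members were called. Among the genes named it changed the calls of Slc1a4, which passed (2.37, adjusted p = 0.0354), and Slc6a19, which did not (adjusted p = 0.0558). Groups of 3 limit every test, and genes with few counts, such as Slc1a4 with 4 counts in Asrij low replicate 3, are measured with more counting error.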
